A study of Mus musculus with 16 samples.

Results

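The proteasome genes were followed in mouse NIH3T3 fibroblasts treated with bortezomib, a drug that blocks the proteasome. They were chosen by symbol, as every gene whose name starts with Psm, a letter from a to g and a number, which gave 49 genes of the 23356 in the tables. These were 7 alpha subunits and 7 beta subunits of the 20S core, 3 immunosubunits (Psmb8, Psmb9 and Psmb10) and 2 core subunits known from other tissues (Psma8 and Psmb11). For the 19S cap there were 6 ATPases and 14 other genes, with symbols starting Psmd. These 14 are called the other 19S subunits below, although assembly factors of the base, Psmd9 and Psmd10 among them, were counted with them. The rest were 4 activator genes, the inhibitor gene Psmf1, 4 assembly chaperones (Psmg) and Psmc3ip, which carries a matching name but is not a proteasome subunit. Leaving out the immunosubunits, the tissue-specific subunits and Psmc3ip, 43 genes were counted as constitutive. RNA was sequenced from 4 groups of 4 libraries each: a control at 0 min with no stress, and cells given bortezomib for 45, 135 or 405 min. All 16 libraries came from the one cell line, and per the study from cells that stably express a destabilizing domain (DD) fused to superfolder GFP. The study describes keeping these cells with Shield-1, the ligand that stabilizes the domain, but does not name the ligand for the bortezomib libraries. The labels give no dose, no vehicle control at the later times and no statement that libraries came from separate cultures, so the p-values below measure only the spread between these libraries, which may be technical.

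The 26S proteasome degrades proteins marked with ubiquitin. Its 20S core is a barrel of alpha rings that gate the entrance and beta rings that hold the proteolytic sites, and its 19S cap binds the substrate, removes ubiquitin and unfolds the chain with a ring of ATPases. Bortezomib binds the catalytic threonine of the beta subunits, foremost that of Psmb5. Mammalian cells are known to answer a blocked proteasome by transcribing the subunit genes together through the factor Nfe2l1, which recognizes antioxidant response elements.

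The catalytic sites are shown first because they are where bortezomib acts and where each standard subunit is paired with its immune or tissue-specific relative. Each line gives 57 coding bases from the codon of the catalytic threonine, in capitals, to the end of the motif around the conserved aspartate, read from GENCODE M1 transcripts on the mm9 assembly (NCBIM37).
Psmb5 (chromosome 14, 55232644 to 55236851, minus strand): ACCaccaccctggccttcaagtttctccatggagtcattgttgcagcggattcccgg
Psmb8 (chromosome 17, 34334666 to 34338399, plus strand): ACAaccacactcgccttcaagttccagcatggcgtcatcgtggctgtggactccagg
Psmb11 (chromosome 14, 55244147 to 55248393, plus strand): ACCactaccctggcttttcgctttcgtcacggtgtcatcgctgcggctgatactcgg
Psmb6 (chromosome 11, 70338869 to 70341360, plus strand): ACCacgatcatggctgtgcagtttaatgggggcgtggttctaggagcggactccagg
Psmb9 (chromosome 17, 34318932 to 34324697, minus strand): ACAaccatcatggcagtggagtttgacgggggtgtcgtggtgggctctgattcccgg
Psmb7 (chromosome 2, 38443556 to 38499607, minus strand): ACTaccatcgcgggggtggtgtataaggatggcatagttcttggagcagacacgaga
Psmb10 (chromosome 8, 108459628 to 108462292, minus strand): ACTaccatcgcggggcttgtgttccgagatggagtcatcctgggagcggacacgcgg
Psmb5, Psmb6 and Psmb7 are the catalytic subunits of the standard proteasome, and Psmb8, Psmb9 and Psmb10 replace them after interferon or in immune cells. Over this window Psmb5 and Psmb8 shared 77.2% of their bases, and Psmb6 with Psmb9 and Psmb7 with Psmb10 shared 71.9% each. Psmb11, the thymus form of Psmb5, shared 71.9% with Psmb5.

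The proteasome genes took up a far larger share of the assigned fragments in some libraries than in others, and the difference followed another property of the libraries. The fragments assigned to ribosomal protein genes, which every growing cell transcribes at high level, made up 4.25 to 9.42% of 7 libraries and 0.398 to 1.21% of the other 9. The 7 were replicates 1 and 2 at 45 min, replicates 1 and 2 at 135 min and replicates 1, 3 and 4 at 405 min, so that no control library was among them. They held 1385229 to 19930375 assigned fragments, against 570323 to 1469951 in the other 9. Genes of olfactory and vomeronasal receptors, which fibroblasts do not use, took 0.00556 to 2.62% of the 7 and 4.16 to 5.13% of the 9. The summed level of 10 fibroblast markers was 3443 to 21598 CPM (fragments scaled to the total of the library) in the 7 and 267 to 1629 in the 9, and that of 5 epithelial markers was 0.381 to 81.6 and 120 to 196. Immune markers (5 genes) summed to 0 to 42.6 and 52.2 to 138 CPM and neuronal markers (4 genes) to 0.435 to 97.5 and 65.9 to 227, with none of the markers at 0 throughout either class. Their part in the results was not tested.

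Summed over the 49 genes, the share was 0.108% ± 0.0192 (SD, n = 4) in the control libraries, with a range of 0.0870 to 0.134%. Among the 7 libraries rich in ribosomal protein fragments it was 0.674 and 0.604% at 45 min, 0.682 and 0.583% at 135 min, and 0.759, 0.398 and 0.964% in replicates 1, 3 and 4 at 405 min. The 3 late libraries thus lay on both sides of all 4 earlier ones. The other treated libraries gave 0.0884 and 0.0689% at 45 min, 0.0931 and 0.0901% at 135 min, and 0.141% in replicate 2 at 405 min, of which 3 lay within the range of the controls, the lower 45 min value below it and the 405 min value just above it. Counting error was small beside these gaps, since the 95% Wilson intervals of the shares were at most 0.0210 percentage points wide; they cover counting error only.

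**Figure D1:**
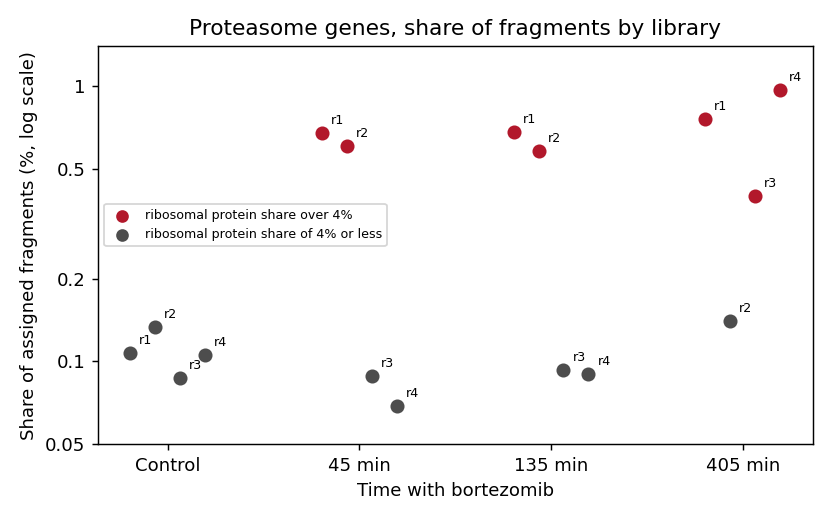
Share of assigned fragments that fell in the 49 proteasome genes (percent, log axis) in each of the 16 libraries, by time with bortezomib; each point is a library, r1 to r4 are replicate numbers, and colour marks whether ribosomal protein genes took over 4% of fragments. The 7 libraries over 4% sit between 0.398 and 0.964%, and the other 9, all 4 controls among them, between 0.0689 and 0.141%.

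In the 9 libraries poor in ribosomal protein fragments, a gene that fibroblasts are not known to use stood above nearly all the others. Psmb11, a single-exon gene of thymic epithelium, had 62.4 to 223 CPM there, with 130, 72.0, 66.2 and 160 CPM in control replicates 1 to 4. It exceeded the CPM of 41 to 43 of the 43 constitutive genes in each of the 4 controls and of 37 to 43 in each of the 9 libraries. Per length, on the scale of the deposited FPKM values, it exceeded 3 to 12 of the 14 core subunits in the 9 libraries. These FPKM were not a fixed multiple of CPM for each gene. Psmb5 had 99.9 FPKM at 22.8 CPM in replicate 1 at 135 min and 78.5 FPKM at 67.8 CPM in replicate 1 at 405 min. In the same libraries Psmb7 had 231 FPKM at 124 CPM and 380 FPKM at 312 CPM. In the 7 other libraries Psmb11 had 0.544 and 2.29 CPM at 45 min, 1.27 and 36.4 CPM at 135 min, and 5.06, 90.2 and 0.351 CPM in replicates 1, 3 and 4 at 405 min. Its FPKM exceeded no core subunit in 6 of them and 4 of 14 in replicate 3 at 405 min, the library with the lowest ribosomal protein share of the 7. Psma8, the testis form of an alpha subunit, had 0 to 27.3 CPM in the 9 libraries and 0 to 5.78 CPM in the 7. The time course was read in the 7 libraries, which were chosen by a ribosomal protein share over 4% and not by these genes.

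**Figure D2:**
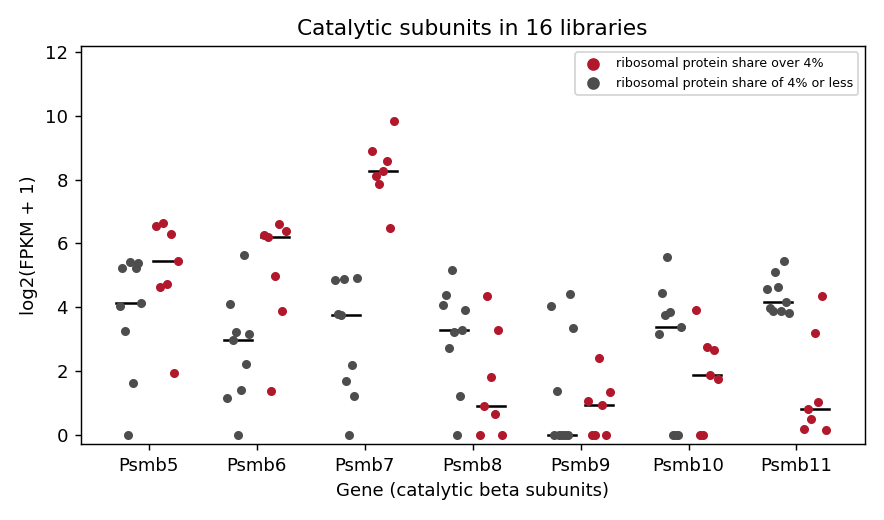
Level of the 7 catalytic beta subunit genes as log2(FPKM + 1), from the deposited FPKM values; each point is a library, colour marks the ribosomal protein share, and the short lines are medians over the 7 or 9 libraries. Psmb7 stood highest where the share was over 4%, with a median of 309 FPKM, and Psmb11 stood near or above the standard subunits where it was not, with a median of 17.0 FPKM.

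Per length, the levels of the subunits spanned a wide range in the 7 libraries. The alpha subunits had median FPKM from 212 (Psma6) to 497 (Psma4), and the beta subunits from 41.0 (Psmb2) to 309 (Psmb7). The ATPases lay between 38.7 (Psmc3) and 187 (Psmc6), and the other 19S subunits between 9.69 (Psmd13) and 202 (Psmd1), the large scaffold of the cap. The alpha subunits filled 7 of the 8 highest ranks among the 49 genes, with Psmb7 in between. Neighbours in this order did not separate: Psma4, first by median, ranged from 150 to 1203 FPKM over the 7 libraries and Psma6, eighth, from 39.8 to 547. Activator genes were lower, at medians of 11.3 (Psme1) to 27.0 (Psme2), and the immunosubunits lower again, at 0.859 (Psmb8) to 2.69 (Psmb10).

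The 14 constitutive core subunits assemble in equal number, but their FPKM were far from equal and the imbalance changed from library to library. The median alpha subunit stood 2.78 and 11.1 times above the median beta subunit in the 45 min libraries, 4.67 and 4.92 times in the 135 min libraries, and 0.766, 10.7 and 2.65 times in replicates 1, 3 and 4 at 405 min. The highest core subunit exceeded the lowest by 5.12 times in replicate 1 at 405 min and by 758 times in replicate 1 at 135 min. In the latter Psma4 had 1203 FPKM and Psmb6 had 1.59 FPKM, a value that rested on 2 fragments. Replicates of a time differed as much as times did. The ratio of FPKM to CPM of a gene also changed between libraries, and its part in the imbalance was not tested.

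Of the 3 standard catalytic subunits, Psmb5 and Psmb7 overlapped between all times. For Psmb6 both 135 min values lay below both 45 min values, as for 18.3% of all genes. Counts and shares of genes without overlap in the 7 libraries were taken after edgeR's TMM scaling between libraries. The CPM printed are scaled to library totals only. Psmb5, the chymotrypsin-like subunit, had 36.2 and 11.8 CPM at 45 min, 22.8 and 18.3 CPM at 135 min, and 67.8, 2.17 and 23.5 CPM in replicates 1, 3 and 4 at 405 min. The 405 min group held both the highest and the lowest value of the 7, the lowest resting on 3 fragments. The log2 fold change of 405 against 45 min was 0.39 with a standard error of 1.06 (adjusted p = 0.93, edgeR's quasi-likelihood test with Benjamini-Hochberg adjustment, as for all adjusted p-values here). In the other 9 libraries Psmb5 had 0 to 33.3 CPM with a median of 13.0.

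Psmb6, the caspase-like subunit, had 48.3 and 45.4 CPM at 45 min, 0.634 and 28.0 CPM at 135 min, and 110, 13.0 and 56.8 CPM at 405 min, in the same order of replicates. Both 45 min values lay above both 135 min values, the lower of which rested on 2 fragments. The log2 fold change of 135 against 45 min was −1.95 with a standard error of 1.25 (adjusted p = 0.997). Replicate 3 at 405 min lay below 5 of the other 6. Psmb7, the trypsin-like subunit and the most abundant beta subunit, had 353 and 157 CPM, then 124 and 258 CPM, then 312, 77.2 and 574 CPM. The log2 fold changes of 405 against 45 min were 0.36 with a standard error of 1.11 for Psmb6 and 0.42 with a standard error of 0.85 for Psmb7, with adjusted p of 0.94 and 0.90.

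The immunosubunits were low in the 7 libraries, at or under 10.1 CPM. Psmb8 had 0 and 0.655 CPM at 45 min, 9.83 and 2.80 CPM at 135 min, and 0.789, 10.1 and 0 CPM at 405 min. Psmb9 had 0.435 and 0, then 0 and 2.80, then 0.789, 0 and 0.753 CPM, and Psmb10 had 9.47 and 0, then 0 and 6.68, then 3.88, 6.50 and 2.06 CPM. A count of 0 allows up to 3 fragments, which is 0.151 CPM in the deepest of the 7 libraries and 2.17 CPM in the shallowest. Psmb9 was at 0 in 3 of the 7 and had at most 15 fragments, whereas the highest value of Psmb10 rested on 174 fragments. All 3 genes had at least 1 library at 0 among the 7 and were not tested there, and the values of each at 405 min overlapped those at 45 min. In the 4 controls Psmb8 had 6.73 to 41.6 CPM and Psmb10 had 9.03 to 59.0 CPM, against 0 to 10.1 and 0 to 9.47 CPM in the 7 libraries. Psmb10 had 0, 6.68, 0 and 0 CPM in the 4 libraries at 135 min, all below the 4 control values, which 8.85% of 22359 genes showed.

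**Figure D3:**
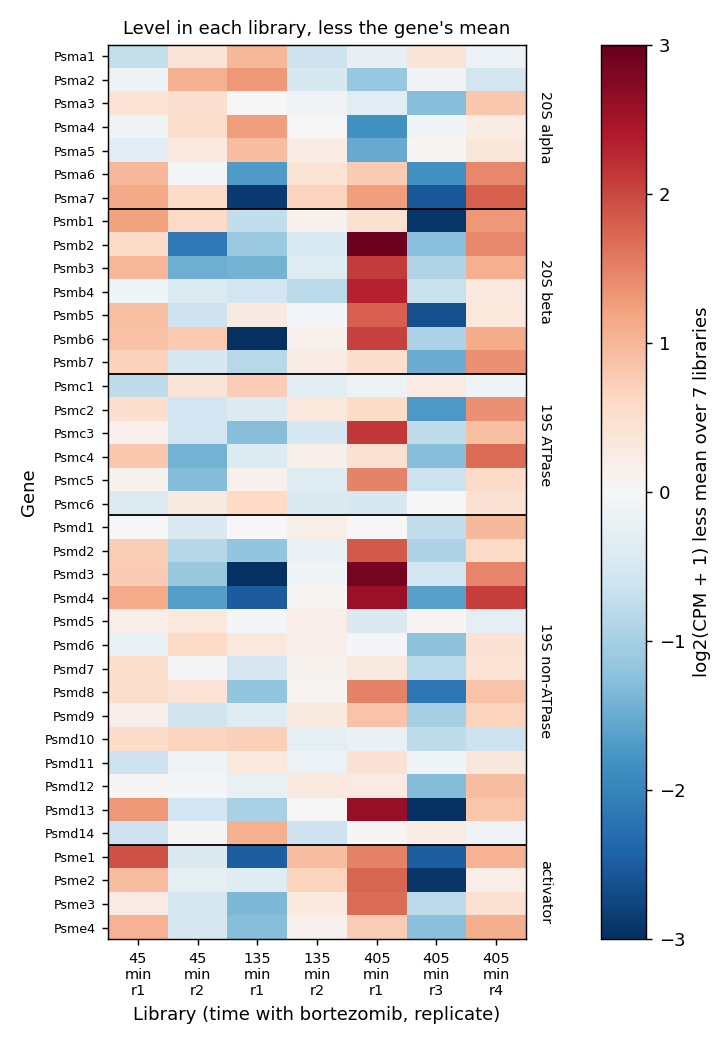
Level of the 38 subunit and activator genes in the 7 libraries with a ribosomal protein share over 4%, as log2(CPM + 1) less the gene's mean over those libraries, from blue (lower) to red (higher), with the colour scale held to values between the ends shown. Columns are libraries by time and replicate, and rows are genes by class; replicate 1 at 405 min is high for most beta subunits and low for Psma4, and replicate 3 at 405 min is low in most rows.

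Between libraries, the beta subunits moved most and the alpha subunits moved differently from them. The median standard deviation of log2(CPM + 1) over the 7 libraries was 1.39 for the beta subunits, 0.882 for the alpha subunits, 0.947 for the ATPases and 0.653 for the other 19S subunits, against 0.844 over all 8605 genes tested. The median deviation of the beta subunits from their own means was 0.88 and −0.48 at 45 min, −0.82 and −0.03 at 135 min, and 2.05, −1.26 and 1.11 in replicates 1, 3 and 4 at 405 min. That of the alpha subunits was −0.12 and 0.49, then 0.93 and 0.00135, then −0.31, −0.09 and 0.35. In replicate 1 at 405 min, the beta subunits were therefore high and the alpha subunits below their mean, so that the alpha genes held 0.956 times the fragments of the beta genes there against 11.9 times in replicate 1 at 135 min.

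Tested in the 7 libraries, none of the 41 proteasome genes that had at least 1 fragment in each passed an adjusted p of 0.05 at 405 against 45 min, where 0% of the 8605 genes did. At an unadjusted p under 0.05 the count was 0 of 41, against 7.16% of all genes, and on leaving out 1 library it was highest without replicate 3 at 405 min, with 4 of 42 higher. The fold change was above 0 for 31 of the 41 and for 55.7% of all genes, and the median on the log2 scale was 0.32 for the 41 and 0.14 over all genes. By class the medians were −0.16 for the alpha subunits (3 of 7 positive), 0.42 for the beta subunits (6 of 7), 0.66 for the ATPases (6 of 6), 0.42 for the other 19S subunits (10 of 14) and 0.21 for the activators (3 of 3 tested). The filter left out Psma8, Psmb8, Psmb9, Psmb10, Psme1, Psmg1, Psmg3 and Psmg4, each at 0 in at least 1 of the 7.

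At 135 against 45 min 0 of 41 were called, against 0% of all genes, and 0 of 41 had an unadjusted p under 0.05, against 1.64%. Without replicate 2 at 135 min 3 of 41 were lower by that measure, and without replicate 1 at 45 min 1 was higher. The fold change was above 0 for 13 of the 41 and for 46.3% of all genes, and the median was −0.36 beside −0.07 over all genes. All 7 beta subunits had a negative value, from −1.95 (Psmb6) to −0.29 (Psmb5), with a median of −0.66, while the alpha subunits had a median of 0.05. After TMM scaling, both 135 min values lay below both 45 min values for 10 of the 41 genes, against 18.3% of all genes. Psma7, Psmc3, Psmc3ip and Psmd7 were among the 10, but their values overlapped on CPM scaled to library totals.

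At 405 against 135 min 0 of 41 were again called, against 0% of all genes. At an unadjusted p under 0.05 in edgeR, 5 of 41 were higher at 405 min and 0 lower, against 3.32% of all genes in either direction. The count rested on single libraries: it was 0 without replicate 1 at 405 min (against 0.511% of all genes), 0 without replicate 1 at 135 min (0.0586%), 2 without replicate 4 at 405 min (2.52%) and 12 of 42 without replicate 3 at 405 min (10.6%). Scaling by total counts left 1 (3.08%). DESeq2 called 0 of 41 in each of the 3 contrasts, against 0.476, 0.0349 and 0% of all genes called higher at 405 against 45, 135 against 45 and 405 against 135 min. At an unadjusted p under 0.05 it had 2, 1 and 8 of 41 higher and 0 lower, against 11.8, 4.16 and 6.4% of all genes in either direction. The 5 genes of the edgeR fit were Psmd3, a scaffold subunit of the lid (log2 fold change 3.05, SE 1.20), the beta subunits Psmb2 (2.76, SE 1.17), Psmb3 (2.20, SE 0.98) and Psmb4 (1.98, SE 0.86), and the ATPase Psmc3 (2.20, SE 0.82). Each had an adjusted p of 0.91. The beta subunits had a median of 1.98 with 7 of 7 positive, the alpha subunits −0.37 with 3 of 7, the ATPases 0.83 with 4 of 6, the other 19S subunits 0.37 with 10 of 14 and the activators 1.13 with 3 of 3, against 0.16 over all genes. In all, 30 of the 41 lay above 0, as did 57% of all genes.

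**Figure D4:**
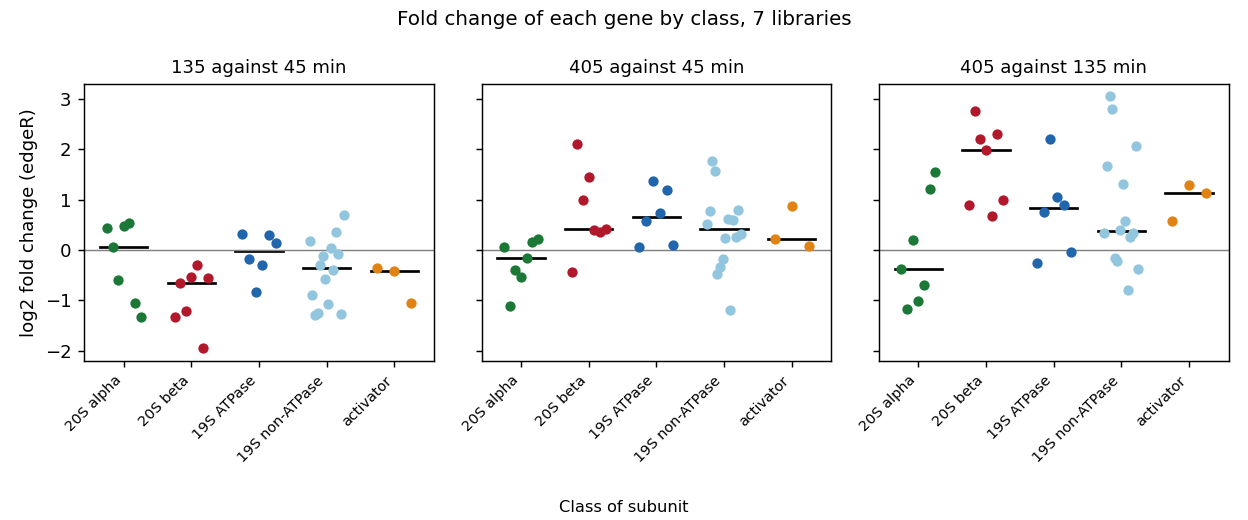
Log2 fold change of each proteasome gene between times in the 7 libraries (edgeR), by class of subunit, for 135 against 45 min, 405 against 45 min and 405 against 135 min; each point is a gene and the short lines are class medians. The beta subunits lie below 0 in the first contrast (median −0.66) and above 0 in the third (median 1.98), and the alpha subunits straddle 0 in all 3.

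The subunits at the ends of each class show how the libraries made these values. Psma2, the lowest alpha subunit at 405 against 45 min (−1.12, SE 0.75), had 186 and 436 CPM at 45 min, 512 and 149 CPM at 135 min, and 94.2, 196 and 142 CPM at 405 min. Psma7, the highest alpha subunit (0.21, SE 1.13), had 188 and 127, then 10.8 and 137, then 206, 13.7 and 299 CPM. The values of both genes at 405 min overlapped those at 45 min. Psmb2, the highest of the standard beta subunits (2.10, SE 1.12), had 59.5 and 8.19, then 17.7 and 28.7, then 310, 15.9 and 108 CPM, and Psmb1, the lowest (−0.44, SE 0.94), had 293 and 191, then 75.5 and 136, then 173, 15.9 and 314 CPM. Both are non-catalytic members of the beta ring. The unadjusted p of Psmb2 was 0.090 and its adjusted p 0.69. Psmb11 had the highest fold change of the 41 (4.41, SE 2.13), which was 0.87 without replicate 3 at 405 min.

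In the 19S cap, Psmc3, a subunit of the ATPase ring, was the highest of its class (1.38, SE 0.79), with 67.5 and 41.6, then 25.0 and 42.5, then 272, 36.1 and 118 CPM. Psmc1, the lowest (0.06, SE 0.65), had 103 and 228, then 293 and 140, then 156, 207 and 159 CPM, with replicates of a time differing by as much as the times. Psmd3 (1.77, SE 1.12) had 62.7 and 16.2, then 2.85 and 34.5, then 274, 24.5 and 103 CPM. For Psmc3 and Psmd3, replicates 1 and 4 at 405 min lay above all 4 earlier libraries and replicate 3 did not. Psmd10, an assembly factor of the base also called gankyrin, was the lowest 19S gene (−1.20, SE 0.75), with 25.2 and 27.2, then 27.9 and 13.4, then 14.3, 9.38 and 10.3 CPM. With Psmd5 it was 1 of 2 genes whose 3 late values all lay below both 45 min values, against 14.6% of all genes.

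Of the activators, Psme3, the nuclear PA28 gamma, had 59.3 and 33.9, then 18.7 and 60.4, then 161, 28.2 and 67.8 CPM (405 against 45 min 0.88, SE 0.78). Psme4, which encodes PA200, had 266 and 92.8, then 52.6 and 141, then 215, 53.4 and 277 CPM (0.09, SE 0.80). Neither separated the times. Psmf1, which encodes the inhibitor PI31, had 36.3 and 3.44, then 12.05 and 40.5, then 49.95, 61.4 and 57.9 CPM. After TMM scaling it was the only gene of the 41 whose 3 late values lay above both 45 min values, against 10.5% of all genes. It was likewise the only one above both 135 min values, against 8.44% (405 against 45 min 1.54, SE 0.92, unadjusted p = 0.12, adjusted p = 0.70). On CPM scaled to library totals, the late values of Psmd11 also lay above both at 45 min, the lowest at 155.9 against 155.7 CPM. It was also among the genes highest in the libraries poor in ribosomal protein fragments, with 11.6 to 154 CPM. The assembly chaperone Psmg2 had 43.2 and 3.93, then 13.95 and 26.9, then 18.9, 5.78 and 18.5 CPM.

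Replicate 3 at 405 min had the fewest fragments, the lowest ribosomal protein share and the highest receptor share of the 7 libraries, and the late values turned on it. Without it, which is also the set left by a share over 6%, the median fold change of the proteasome genes at 405 against 45 min was 0.75 in place of 0.32, over 42 genes, beside 0.03 over all genes. At 405 against 135 min the median without it was 1.16 in place of 0.75, beside −0.02 over all genes. After TMM scaling, both remaining late values then lay above both 45 min values for 17 of the 41 genes, against 21.7% of all genes. They lay above both 135 min values for 25 of the 41, against 27.9%. None of the 42 passed the adjusted threshold in that set. Without replicate 4 at 405 min instead, the medians were 0.00478 and 0.14.

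The direction of a gene's fold change went with the base composition of its transcript. Among the 39 constitutive genes tested, Spearman's rho between the percentage of G and C and the log2 fold change was 0.67 at 405 against 45 min, −0.46 at 135 against 45 min and 0.74 at 405 against 135 min, given as descriptions over genes that share libraries. The same rho over the 8009 tested genes with a transcript was 0.34, −0.00505 and 0.36. Without replicate 1 at 405 min the rho at 405 against 45 min was 0.21 and that at 405 against 135 min 0.52. The 16 constitutive genes above 50% G and C had a median of 0.78 at 405 against 45 min, all positive, which became 0.29 with 11 positive without that library. The same genes had a median of 1.82 at 405 against 135 min, all positive, and the 23 at or below it a median of 0.20 with 12 positive. Over all genes the medians were 0.52 and −0.05. The alpha subunits, with a median of 45.0%, and the beta subunits, with 52.2%, fell mostly on different sides of that line.

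By library, rho across the 39 genes was 0.40 and −0.47 in the 45 min replicates, −0.60 and 0.06 in the 135 min replicates and 0.81, −0.35 and 0.42 in replicates 1, 3 and 4 at 405 min, so that replicates of a time differed in sign. With offsets fitted per library over 20 bins of G and C content, an alternative chosen after seeing the data, rho over the members was 0.39, −0.40 and 0.56, and over all genes 0.04, −0.05 and 0.05. The median of the genes above 50% was then 0.65 at 405 against 45 min, with 11 of 16 positive, and 1.405 at 405 against 135 min, with 15 of 16 positive. The 120 middle bases of the coding sequence are shown for the constitutive genes with the lowest and the highest coding G and C content of 42 ranked, with G and C in capitals.
Psmc6 (chromosome 14, 45949504 to 45969367, plus strand, mm9; coding bases 526 to 645): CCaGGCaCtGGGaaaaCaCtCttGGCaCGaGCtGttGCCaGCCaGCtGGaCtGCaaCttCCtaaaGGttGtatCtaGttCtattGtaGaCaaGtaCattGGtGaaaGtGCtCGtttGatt
Psmd9 (chromosome 5, 123678199 to 123700140, plus strand, mm9; coding bases 275 to 394): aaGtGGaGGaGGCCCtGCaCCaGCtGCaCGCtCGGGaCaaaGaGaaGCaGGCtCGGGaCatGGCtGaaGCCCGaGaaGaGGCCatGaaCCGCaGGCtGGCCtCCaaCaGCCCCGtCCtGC
Psmc6, an ATPase with 41.8% G and C over its coding sequence, had 218 and 349, then 435 and 215, then 207, 293 and 394 CPM, and a log2 fold change of −0.04 with a standard error of 0.68 at 405 against 135 min. Psmd9, an assembly factor of the base, had 58.7%.

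**Figure D5:**
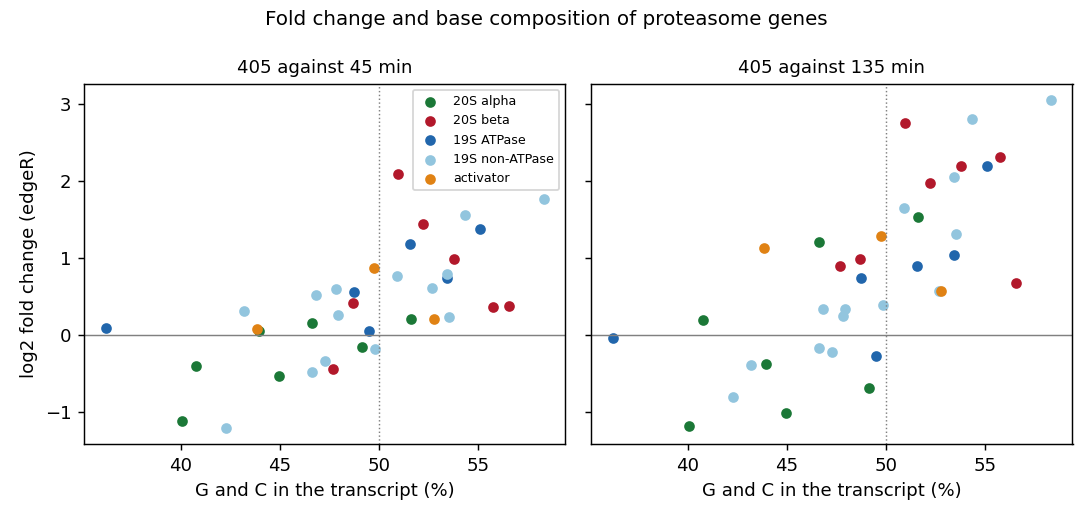
Log2 fold change (edgeR) of the tested subunit and activator genes in the 7 libraries against the percentage of G and C in the transcript, for 405 against 45 min (left) and 405 against 135 min (right); each point is a gene, colour is its class and the dotted line marks 50%. The 16 constitutive genes to the right of the line lie above 0, with medians of 0.78 and 1.82; without replicate 1 at 405 min the first median was 0.29.

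Against the control, all 4 libraries of each time were compared in one fit over the 16 libraries, in which 11 of the 49 genes had a fragment in every library and 38 were left out. None of the 11 was called at 45, 135 or 405 min, and 0% of the 5030 genes tested were called at each time. At an unadjusted p under 0.05, 4, 2 and 7 of the 11 were higher and 0 lower, against 12.9, 9.18 and 16% of all genes in either direction. These counts moved with single libraries: that at 45 min was 1 without control replicate 1 or 3 or without replicate 1 or 2 at 45 min, that at 135 min was 0 without control replicate 1 or 3 or without replicate 1 or 2 at 135 min, and that at 405 min was 3 without its replicate 4 and 4 without its replicate 1. With a replicate block they were 0, 0 and 8. The medians were 2.31, 1.75 and 2.68, against 0.14, 0.16 and 0.11 over all genes. The largest were Psma3, an alpha subunit, at 4.11 (SE 1.54) and Psmd1 at 4.11 (SE 1.497) at 405 min. DESeq2, run as an alternative, called 2, 2 and 5 of the 11 higher at its own adjusted p under 0.05, against 6.56, 3.44 and 8.03% of all genes, with Psma3 among them at each time. Over all 49 genes, 11 had their 4 late values above all 4 control values, against 2.68% of 22359 genes. Every treated group mixed libraries of both classes and the control held libraries of 1 class, so the time and the class cannot be told apart in these values.

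Within the 9 libraries poor in ribosomal protein fragments, the treated libraries did not lie above the control in the same way. The medians over the 11 genes were −0.29 at 45 min, −0.88 at 135 min and 0.56 at 405 min, where a single library stood for the group and was assumed to vary like the others. None of the 11 was called at any of the 3 times, against 0, 0 and 0.0239% of the 8366 genes tested, and 0, 4 and 0 had an unadjusted p under 0.05, against 2.61, 10.3 and 0.562%. With the log2 ribosomal protein share as a covariate over all 16 libraries, the medians were −0.29, −0.30 and 0.22, and 0 were called.

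Promoter sequence was searched for the elements known to drive these genes. RefSeq promoters on GRCm38.p6, 250 bases before to 50 after the start, were at hand for 41 of the 49 genes. The core of the antioxidant response element, TGACNNNGC on either strand, was in the promoters of 6 of the 41 (14.6%), against 12.4% of 32851 promoters. In this search the 41 were counted by gene, with a match in any of their 44 promoters, and the background by promoter, so the units differ. These were Psmb5, Psmb6, Psmc6, Psmd9, Psmd12 and Psme4. The CCAAT box (CCAAT) was in 36.6% of the genes against 37.4%, and a pair of heat shock units (GAANNTTC) in 7.32% against 7.86%. The matches in the 2 catalytic subunits are shown with 10 bases on each side, the match in capitals.
Psmb5 (GRCm38.p6, chr14:54618024-54618052, minus strand): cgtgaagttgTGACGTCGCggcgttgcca
Psmb6 (GRCm38.p6, chr11:70525338-70525366, plus strand): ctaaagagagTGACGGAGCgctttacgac
The match begins 47 bases before the start of Psmb5 and 9 bases before that of Psmb6, and neither gene passed the test in any contrast.

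Other genes of the pathway were taken from a list of assembly, ubiquitin and regulatory factors, of which 25 were in the tables and 22 were tested in the 7 libraries. None was called by edgeR in any of the 3 contrasts, and DESeq2 called Zfand2a at 405 against 45 min. At an unadjusted p under 0.05 in edgeR, 2 of the 22 were higher and 0 lower at 405 against 45 min, 1 was higher and 0 lower at 135 against 45 min, and 2 were higher and 1 lower at 405 against 135 min, against 7.16, 1.64 and 3.32% of all genes. The 2 at 405 against 45 min were Zfand2a, a proteasome-associated zinc finger protein induced by proteotoxic stress, at 4.49, and the polyubiquitin gene Ubb at 2.28. Zfand2a had 47.4 and 11.5 CPM at 45 min, 170 and 254 CPM at 135 min, and 1131, 207 and 624 CPM in replicates 1, 3 and 4 at 405 min. Zfand2a was also the gene higher at 135 against 45 min (2.73, SE 0.96). Its 3 late values all lay above both 45 min values, as for 10.5% of all genes, while those of Psmb5, Psmb6 and Psmb7 fell on both sides of them in the same libraries. Nfe2l1, the factor named above, had 128 and 33.6, then 20.3 and 76.8, then 362, 77.2 and 125 CPM, and Pomp, the chaperone that matures the core, had 70.1 and 65.8, then 48.8 and 45.9, then 62.2, 26.0 and 59.3 CPM. Nfe2l1 had a log2 fold change of 1.21 (SE 0.85) at 405 against 45 min, where its values overlapped, and of 2.12 (SE 0.89, unadjusted p = 0.038, adjusted p = 0.91) at 405 against 135 min. On the printed CPM its 3 late values lay above both 135 min values, the lowest by less than 1 CPM. After TMM scaling 8.44% of all genes showed this. Ubb was the other gene higher in that contrast (2.51, unadjusted p = 0.030, adjusted p = 0.91), and Ngly1, the glycanase that processes Nfe2l1, was the one lower (−1.69, SE 0.70, unadjusted p = 0.035, adjusted p = 0.91). Ngly1 had 41.3 and 54.4, then 96.7 and 26.3, then 18.3, 20.9 and 17.3 CPM, with its 3 late values below both 135 min values, as for 7.07% of all genes. Without replicate 1 at 135 min the fold changes in that contrast were 1.51 for Nfe2l1 and −0.27 for Ngly1. Pomp had a log2 fold change of −0.43 (SE 0.60) at 405 against 45 min. On the printed CPM its 3 late values lay below both 45 min values, which 14.6% of all genes showed after TMM scaling.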

How the data were processed

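The authors deposited, per library, estimated counts of fragments per RefSeq gene and FPKM values. Per the study's methods, reads were mapped to mm9 on DNAnexus, whereas the submitters' processing notes name mm10; mapping tools and versions were not given in the sources used here. Per the labels RNA was purified on columns and libraries were made with a NuGEN Encore kit; whether counting used strand was not stated. In the table of 1 library, 27 symbols had become dates and were restored from the shared row order.

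The expected counts were rounded to whole numbers and tested with edgeR 4.0.16 (R 4.3.3; TMM, quasi-likelihood, Benjamini-Hochberg, adjusted p under 0.05) over all genes with at least 1 count in every library of the fit, following the study's use of edgeR and its removal of genes with a zero count. The fits were made on the 7 libraries with a ribosomal protein share over 4%, all 16, and the 9 others. DESeq2 1.42.0 was an alternative. FPKM served only to compare levels between genes. Totals ranged from 570323 to 19930375 fragments. Catalytic subunits, immunosubunits and, per class, the highest and lowest gene at 405 against 45 min are given by library. Members and lists were chosen with earlier results of these data known. No pair of libraries held identical values. Transcript composition came from GENCODE M1, with a transcript for all 49 genes and 93.1% of those tested.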

Additional observations from a re-analysis of the deposited data

Results flagged for a closer look

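Of 64 groups of 4 libraries examined over depth, shares of each class and the levels of the catalytic genes, 4 held a library far from the other 3 by Dixon's 95% critical value, where chance gives about 1 in 20. The share of the 19S ATPases was 0.0157% in control replicate 4, against 0.00898 to 0.0101% in the other controls. The alpha genes held 4.62 times the fragments of the beta genes in control replicate 2, against 1.13 to 1.60 times in the others. Psmb9 stood at 0.52 on the log2(CPM + 1) scale in replicate 1 at 45 min, and Psmb10 at 2.94 in replicate 2 at 135 min, each with 0 in the other 3 libraries of its time. With 0 in the other 3, Dixon's ratio is 1 whatever the remaining value. The Psmb9 value was 0.435 CPM from 8 fragments, while a count of 0 allowed up to 0.491 to 4.81 CPM in the other 3, so they could not have shown it.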

How the results depend on the processing

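All 57 alternative fits of the 3 contrasts between times called 0 proteasome genes. They include fits over all 16 libraries, in which 11 proteasome genes were tested. The fits with a share over 6% repeat those without replicate 3 at 405 min. Leaving out each of the 7 libraries in turn gave medians of 0.00478 to 0.76 at 405 against 45 min, −0.61 to −0.05 at 135 against 45 min and 0.14 to 1.16 at 405 against 135 min.
Against control over 16 libraries, DESeq2 called 2, 2 and 5 of the 11 genes at 45, 135 and 405 min, all higher, against 6.56, 3.44 and 8.03% of genes called higher; all other fits called 0. The cause was not tested. The medians became −0.29, −0.88 and 0.56 in the 9 libraries with a share of 4% or less and −0.29, −0.30 and 0.22 with the share as covariate. Leaving out each library gave 1.53 to 2.67, 1.24 to 2.36 and 2.02 to 3.34, with 0 called.
Within the 9 libraries the median ranged from −0.95 to −0.0145 at 45 min, −2.01 to −0.55 at 135 min and 0.21 to 0.53 at 405 min on leaving out a library; without replicate 4 at 135 min it was −2.01. At 405 min it was 0.26 with no filter on low counts and 0.26 with a replicate block.
Whether replicate numbers paired the libraries could not be settled. Over all 16, deviations of same-numbered libraries correlated from −0.76 to 0.58, with 14 of 24 pairs over 0.1 and a mean of 0.07. Differently numbered libraries gave −0.86 to 0.89, with 24 of 72 pairs over 0.1 and a mean of −0.02. In the 7, same-numbered pairs gave −0.38 to 0.49. There the 45 and 135 min groups held 2 libraries each, whose deviations mirror each other, so these values cannot decide it. The replicate block changed no call, and gave medians of 1.14, 0.84 and 3.08 against control, where its counts at an unadjusted p under 0.05 were 0, 0 and 8 in place of 4, 2 and 7.
Scaling by total counts moved the median of all genes at 135 against 45 min from −0.07 to 0.11 and that of the proteasome genes from −0.36 to −0.13. For the single genes named, 1 call changed in the contrasts of the 7 libraries: DESeq2 called Zfand2a at 405 against 45 min (4.53, adjusted p = 2.19e-05). The filter left 38 genes out of the 16-library fit, 8 of which were at 0 in at least 1 of the 7 libraries; in the 9, a count of 0 allowed up to 2.04 to 5.26 CPM.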
